A study of Mus musculus with 12 samples.

Results

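Interferon-stimulated genes are the genes that cells switch on when they are exposed to interferon, and 39 of them were followed here through the cerebella of spinocerebellar ataxia type 6 knockin mice. Of the 18194 gene symbols that the array annotation gives to single-gene probe sets, 37 of the 39 had a probe set of their own and 34 lay above the filter on low signal, among 12672 genes tested. Where a gene had several probe sets, the one with the highest mean over the 12 arrays was taken. The 3 genes below the filter were Sp100, Oasl2 and Mx1, and the pair without a probe set of their own, Isg15 and Ifi44, was not analysed here.

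Type I interferons bind a receptor of Ifnar1 and Ifnar2, whose kinases are Jak1 and Tyk2. The signal ends in a complex that holds Stat2 and Irf9 and binds the interferon-stimulated response element (ISRE) in the promoters of its targets. Interferon-gamma uses its own receptor and acts through the gamma-activated sequence (GAS), and Irf1 carries part of that signal. Microglia, endothelial cells and neurons of the brain can all mount the response, and their basal levels of many of these genes are low.

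Motifs were counted in the promoters. The ISRE core was searched as GAAA, any 2 bases and GAAA again, and the GAS as TTCNNNGAA, in the 250 bases before each RefSeq transcript start of build GRCm38.p6, on both strands, with overlapping matches counted. A gene was counted if any of its promoters held the motif. Of the 30 genes with a promoter entry, 13 held the ISRE core (43.3%), against 3.46% of all 27025 genes with a promoter of that length. The GAS letters stood in 6 of 30 (20%), against 8.13% of those 27025 genes. A match is a description of letters, not a binding site. No core stood in the entries of Lgals3bp, Ifitm3, Dtx3l, Trim25, Irf7, Ifi47, Irf9 and Xaf1, which also appear in the results below. Usp18 and Rtp4 had no entry. The windows of 7 genes follow, chosen only among those with a core. The ISRE core is in capitals, written 5′ to 3′ along the gene's strand, so a core on the other strand reads TTTC, any 2 bases and TTTC.
Ifit1, chr19:34640755-34640843, + strand: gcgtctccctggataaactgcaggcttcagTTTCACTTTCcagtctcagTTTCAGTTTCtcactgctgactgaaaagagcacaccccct
Ifit3, chr19:34583343-34583446, + strand: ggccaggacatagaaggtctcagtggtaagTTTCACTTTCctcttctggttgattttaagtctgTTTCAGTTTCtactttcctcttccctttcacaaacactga
Gbp7, chr3:142530253-142530322, + strand: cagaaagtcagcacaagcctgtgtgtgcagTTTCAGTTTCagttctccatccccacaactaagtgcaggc
Igtp, chr11:58199492-58199555, + strand: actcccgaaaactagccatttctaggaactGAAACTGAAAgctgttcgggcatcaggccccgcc
Stat2, chr10:128270248-128270315, + strand: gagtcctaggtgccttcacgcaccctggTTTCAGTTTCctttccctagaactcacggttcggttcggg
Rsad2, chr12:26456533-26456602, - strand: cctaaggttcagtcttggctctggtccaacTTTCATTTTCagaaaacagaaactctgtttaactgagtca
Irgm1, chr11:48871421-48871480, - strand: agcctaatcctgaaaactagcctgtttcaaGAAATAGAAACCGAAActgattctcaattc
Ifit1 and Ifit3, neighbours on chromosome 19 that encode RNA-binding antiviral proteins, each held 2 cores. The core of Stat2 lay 213 bases before the start and that of Igtp 25 bases before it. Gbp7 and Igtp, both of the interferon-gamma-induced GTPases, also held GAS letters, 2 and 1 matches.

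The study measured total RNA of whole cerebellum from C57BL/6 mice 6 weeks old on 12 one-colour arrays, 3 for each of 4 groups, with 1 array a mouse. The question named by its title is an early inflammatory response in these cerebella. Cacna1a encodes the pore of the P/Q-type calcium channel, and its CAG repeat is lengthened in this ataxia. MPI 118Q/118Q mice carry the expanded knockin allele and MPI 11Q/11Q mice the short knockin allele, both written as homozygous, and each line was set against its own wild type littermates. Both knockin lines thus carry an engineered allele in all cells, and line and allele cannot be told apart between them. All levels are log2 signals, so that a difference of 1 is 2-fold, and the arrays of a group are given in the order of replicates 1, 2 and 3. The tissue label was met by the 12 cerebellar neuron markers, all above the filter, whose mean linear signal had a log2 of between 9.82 and 10.14 in every array. Pairs of arrays correlated between 0.980 and 0.995 over all probe sets. In whole tissue, fewer cells of a type and less RNA per cell cannot be told apart.

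The clearest pattern among the interferon-stimulated genes lay in a single cerebellum. In replicate 1 of the 11Q knockin, 18 of the 34 tested genes had their highest value of all 12 arrays (52.9%), against 5.34% of all genes tested. In that mouse 30 of the 34 lay above the median of the other 11 arrays (88.2%, against 35.6% of all genes), 20 by more than 0.5 (58.8% against 1.14%) and 6 by more than 1 (17.6% against 0.158%). Replicate 3 of the wild type mice of the 118Q line came next, with the highest value for 7 of 34 genes (20.6% against 11% of all genes). With the first array set aside, that wild type cerebellum held the highest value for 14 of 34 genes (41.2% against 11.4%). These counts describe arrays picked by the genes themselves, and no test was made of them.

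**Figure D1:**
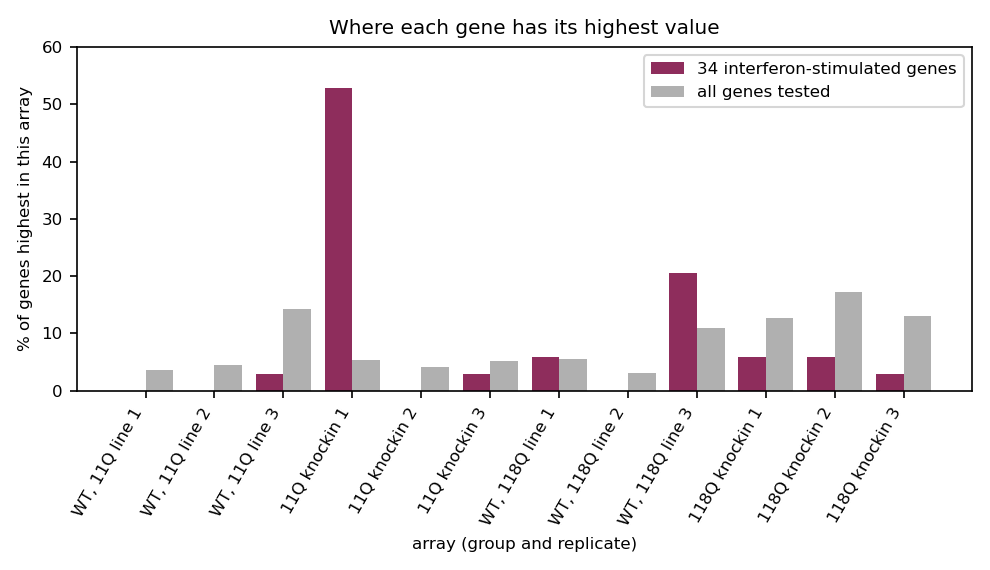
For each of the 12 arrays (x axis) the bars give the percentage of genes whose highest value over all arrays lies there, for the 34 interferon-stimulated genes and for all 12672 genes tested. The 11Q knockin replicate 1 holds 52.9% of the former and 5.34% of the latter.

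The genes with the widest ranges all peaked in that mouse. Usp18, the protease that removes Isg15 from proteins and that restrains the type I receptor, read 1.51, 1.10 and 1.54 in wild type and 3.62, 1.42 and 1.56 in knockin animals of the 11Q line, and 1.43, 1.65 and 1.83 in wild type and 1.72, 1.60 and 2.04 in knockin animals of the 118Q line. Ifit3 read 3.13, 2.85 and 3.51 in wild type and 5.53, 2.99 and 3.13 in knockin animals of the 11Q line, and 3.18, 3.60 and 4.48 in wild type and 3.95, 3.81 and 3.99 in knockin animals of the 118Q line. Both were highest in the same cerebellum, and for Usp18 the other 11 arrays ended at 2.04.

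Ifit1 read 1.54, 1.23 and 1.18 in wild type and 3.61, 1.67 and 1.61 in knockin animals of the 11Q line, and 1.74, 1.12 and 2.52 in wild type and 1.93, 1.74 and 2.00 in knockin animals of the 118Q line. Lgals3bp, a secreted glycoprotein that binds galectins, read 3.59, 3.65 and 3.23 in wild type and 5.00, 3.03 and 3.33 in knockin animals of the 11Q line, and 3.83, 3.16 and 3.51 in wild type and 3.60, 3.52 and 3.13 in knockin animals of the 118Q line. Oasl2, a relative of the oligoadenylate synthetases that stayed below the filter because its mean was low, read 1.57, 0.89 and 1.21 in wild type and 3.36, 1.05 and 1.22 in knockin animals of the 11Q line, and 1.24, 0.71 and 1.59 in wild type and 1.22, 1.38 and 1.21 in knockin animals of the 118Q line. In each of these genes the first 11Q knockin mouse stood clear of the rest, and in Ifit1 and Ifit3 the second-highest mouse was the third wild type of the 118Q line. Over the median of the other 11 arrays the excess on the log2 scale was 2.15 for Oasl2 and 2.06 for Usp18, whose medians there, 1.22 and 1.56, lay under the filter level of 1.58 and are not known to be above background, so no fold is given. It was 4.06-fold for Ifit3, 3.84-fold for Ifit1 and 2.80-fold for Lgals3bp. Rtp4, a chaperone of receptors with antiviral activity, was 2.38-fold above that median, Xaf1, an inhibitor of the apoptosis inhibitor XIAP, 2.03-fold and Irf9 1.91-fold. Igtp, a GTPase that acts at the vacuoles of intracellular parasites, was 1.89-fold above and Ifi47, of the same family, 1.82-fold. Not every gene took part: Ifitm2, Oas2, Irf1 and Mx2 lay below the median of the other arrays in that mouse, Ifitm2 by 0.50.

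**Figure D2:**
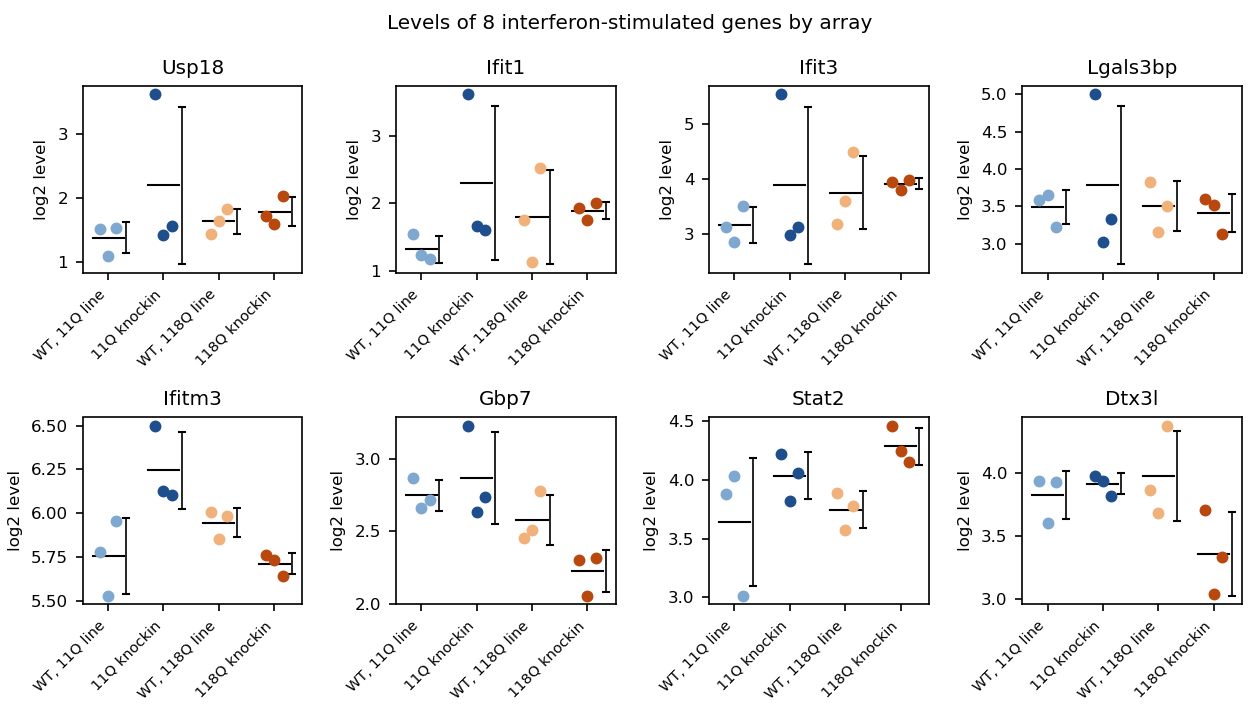
Log2 levels (y axis) of 8 of the genes in the 4 groups (x axis), 1 point per array, with a line at the group mean and a bar of ± 1 SD (n = 3). Usp18, Ifit1, Ifit3 and Lgals3bp have 1 high point in the 11Q knockin, while Ifitm3, Gbp7, Stat2 and Dtx3l show no such lone point of that size.

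The range over the 12 arrays had a median of 1.16 in the 34 genes and of 0.66 in all genes tested, and without that array the medians were 0.88 and 0.64. Ranked by how far a gene's value in that array exceeded the next-highest array, 7 of the first 20 of all genes tested and 13 of the first 50 were among the 34. In the other 11 arrays the same ranking placed none of the 34 among the first 20 except in the third wild type of the 118Q line, which had 2. The pattern was followed in 34 further interferon-induced genes that passed the filter. Of these, 11 peaked in the same mouse (32.4%), 7 exceeded the median of the other arrays by more than 0.5 and 3 by more than 1, and their median excess was 0.14 against 0.59 in the 34 genes above. The 3 were the guanylate-binding protein Gbp6 (4.49-fold), Trim34a (2.67-fold) and the GTPase Irgm2 (2.16-fold), named after their values were seen.

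The excess was also set beside the promoters. The 12 tested genes with a core had a median excess of 0.62 in that mouse, 8 of them above 0.5, and the 14 with a promoter entry and no core had 0.57, again 8 above 0.5. Microglia and endothelial markers were not raised in that array. The median deviation from the gene means there was -0.17 for the 19 microglia markers, within the -0.45 to 0.70 of the other arrays, and -0.03 for the 18 endothelial markers, within -0.43 to 0.27. The 13 receptor and signalling genes stood at -0.12, the lowest of the 12 arrays, where the others lay between -0.03 and 0.12. Only 3 of 13 lymphocyte markers passed the filter, and their median there was 0.00. Choroid plexus markers were low there, at -1.67, and lay between -2.08 and 1.71 in the other arrays. The part of these lists in the pattern was not tested. The median over all probe sets was lowest in that array, 2.21 against 2.31 to 2.38, and its part in the result was not tested.

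**Figure D3:**
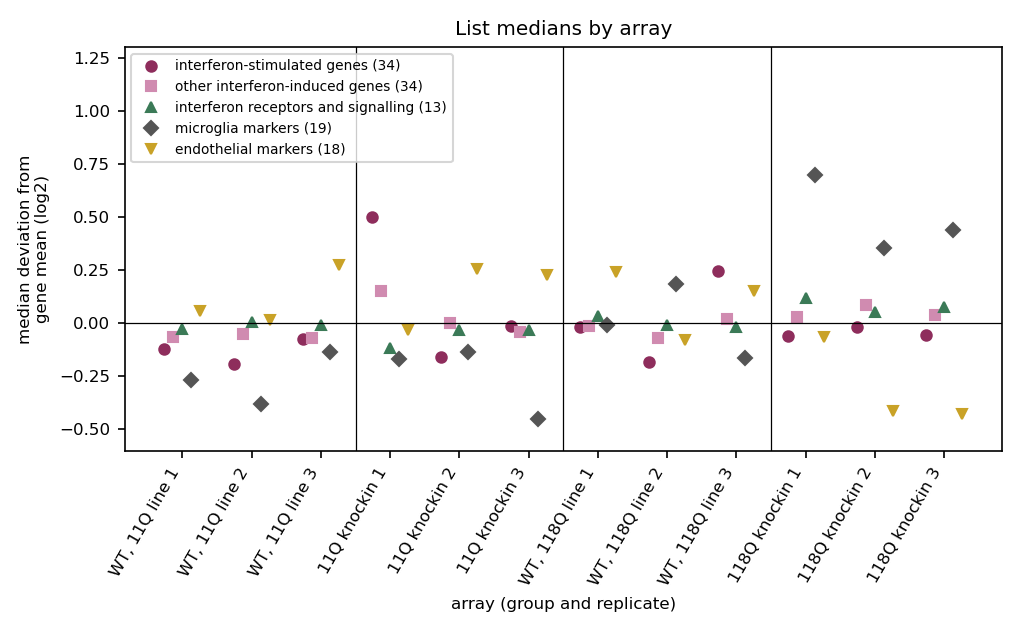
Median deviation of each gene list from its genes' means over the 12 arrays (y axis, log2) by array (x axis), with the number of genes in brackets. The interferon-stimulated genes reach 0.50 in the 11Q knockin replicate 1 and 0.25 in the wild type replicate 3 of the 118Q line, and lie between -0.19 and -0.01 elsewhere, while the microglia markers are highest in the 118Q knockins.

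The first comparison asked whether the expanded allele altered the genes, setting 3 MPI 118Q/118Q knockin mice against 3 wild type littermates. None of the 34 passed an adjusted p of 0.05 in limma, where 24 of all genes did (0.189%). At an unadjusted p below 0.05, Stat2 was higher and Dtx3l, Gbp7 and Trim25 lower. These were 1 of 34 higher against 12% of all genes, and 3 of 34 lower against 6.7%. The median difference of the 34 was -0.04 with 14 above 0, and that of all genes 0.06. The 34 include Gbp2 (-0.13), which passed the filter only through these wild type arrays, so its difference is a description only.

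Stat2, a transcription factor of the type I response, read 3.88, 4.03 and 3.02 in wild type and 4.22, 3.82 and 4.06 in knockin animals of the 11Q line, and 3.89, 3.58 and 3.77 in wild type and 4.46, 4.24 and 4.15 in knockin animals of the 118Q line. Its 118Q knockin values all lay above those of the littermates but overlapped those of the 11Q knockin mice. The difference was 0.54 ± 0.22 (SE, 1.45-fold, adjusted p = 0.213, 3 against 3), and a weaker second probe set gave 0.56.

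Dtx3l, a ubiquitin ligase that works with Parp9 in the response, read 3.94, 3.60 and 3.93 in wild type and 3.98, 3.94 and 3.82 in knockin animals of the 11Q line, and 3.87, 3.68 and 4.37 in wild type and 3.71, 3.04 and 3.33 in knockin animals of the 118Q line. The 118Q knockin mice of replicates 2 and 3 were the lowest of all, and the first lay just above the second wild type of its line. Its difference was -0.62 ± 0.19 (1.53-fold lower, adjusted p = 0.132), and the other probe set gave -0.25. Without the first 118Q knockin mouse it was -0.79, with an adjusted p of 0.0374, the only call among the 34 for this comparison in the 12 fits that left out 1 array.

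Trim25, the ligase that activates the RNA sensor RIG-I, read 2.82, 3.31 and 3.42 in wild type and 3.79, 3.14 and 3.26 in knockin animals of the 11Q line, and 3.41, 2.91 and 3.93 in wild type and 3.01, 2.91 and 2.69 in knockin animals of the 118Q line. Gbp7 read 2.87, 2.66 and 2.72 in wild type and 3.23, 2.64 and 2.74 in knockin animals of the 11Q line, and 2.45, 2.51 and 2.78 in wild type and 2.30, 2.05 and 2.32 in knockin animals of the 118Q line. The 118Q knockin mice had the lowest 3 values of Gbp7 in the study, whereas for Trim25 the groups overlapped. The 118Q differences were -0.55 ± 0.25 for Trim25 (adjusted p = 0.260) and -0.36 ± 0.15 for Gbp7 (adjusted p = 0.242), and the other probe sets gave -0.26 and -0.06. Without the third wild type mouse, the one with many high values, they were -0.29 and -0.26, and the median of the 34 was 0.10 with 20 above 0.

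Next by p came Irf1, Ifitm3, Rsad2 and Ifi47, all with differences below 0. Irf1, the transcription factor of the interferon-gamma arm, read 3.41, 3.36 and 3.13 in wild type and 3.19, 3.46 and 3.36 in knockin animals of the 11Q line, and 3.60, 3.17 and 3.67 in wild type and 3.28, 3.28 and 3.16 in knockin animals of the 118Q line. The knockin minus wild type difference was -0.24 ± 0.14 (adjusted p = 0.365), and the second wild type lay among the knockin mice. Rsad2, which makes a chain-terminating nucleotide against viral polymerases, read 3.11, 2.77 and 2.97 in wild type and 3.45, 2.79 and 3.31 in knockin animals of the 11Q line, and 3.17, 2.78 and 3.34 in wild type and 2.79, 2.78 and 2.80 in knockin animals of the 118Q line. The 3 knockin values of Rsad2 lay close together at the level of the lowest wild type, and the difference was -0.30 ± 0.18 (adjusted p = 0.373). In each other group the second mouse read 2.77 to 2.79, and whether that level is above background is not known. Its weaker probe sets, below the filter, gave 0.02 and -0.27. Groups that did not overlap were seen for 3 of the 34 (Stat2, Gbp7 and Ifitm3), or 8.82%, against 22.4% of all genes.

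Other measures moved with this comparison. All 19 microglia markers tested were above 0 (median 0.41, 1 called), with the log2 of their mean linear signal at 4.54 to 4.95 in the knockin against 4.23 to 4.47 in the wild type mice. Of 18 endothelial markers 16 were below 0 (median -0.37, 1 called), and 18S ribosomal RNA gave 8.80 ± 0.37 in the knockin (SD, n = 3) and 9.92 ± 0.35 in the wild type mice. With the 18S signal in the fit, Dtx3l stood at 0.13 and Trim25 at 0.30, above 0, with Stat2 at 0.64 and Gbp7 at -0.27. The part of the cell markers in these differences was not tested.

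**Figure D4:**
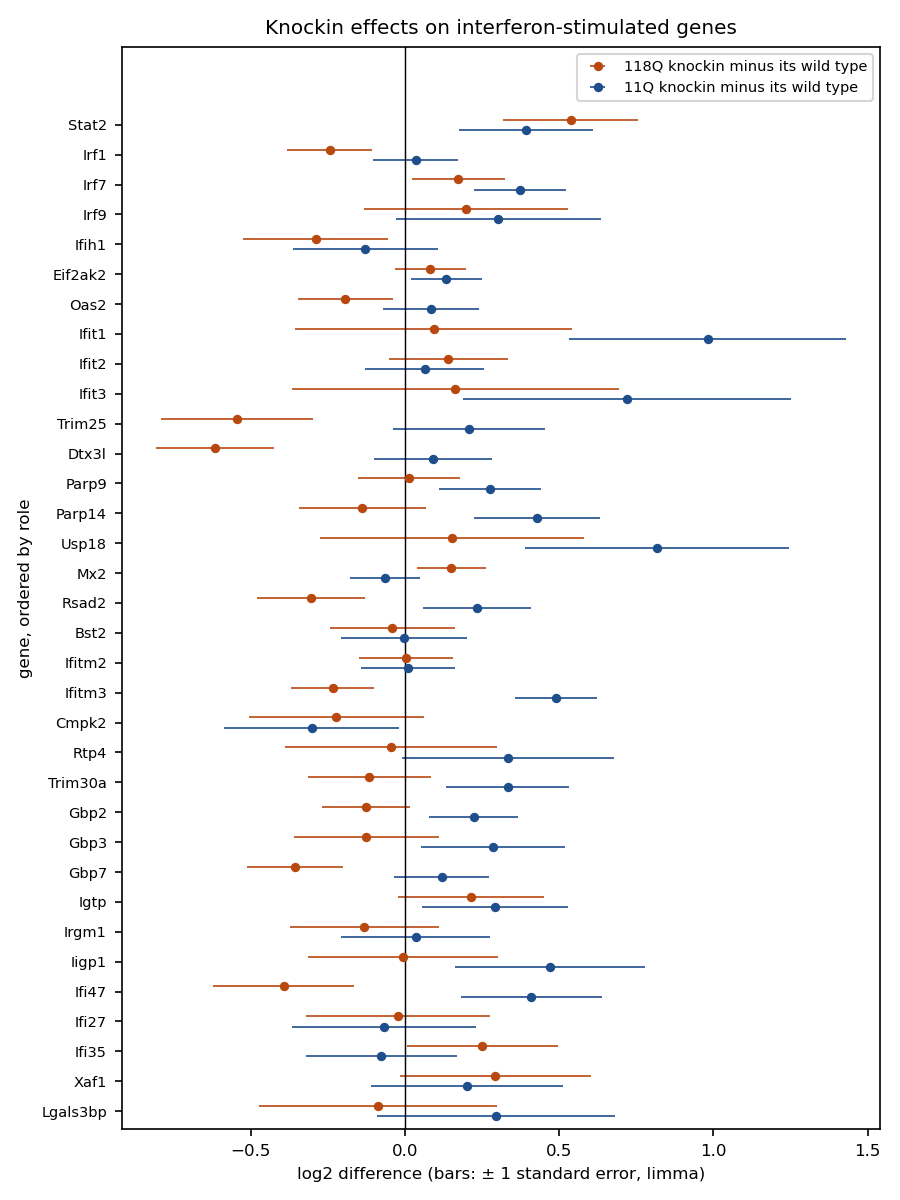
Log2 difference of knockin minus wild type littermates (x axis) with 1 standard error for the 34 tested genes (y axis, by role) in each line. The 118Q differences lie on both sides of 0, 14 above, while 28 of the 11Q differences lie above 0 with wide errors for Usp18, Ifit1 and Ifit3.

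The second comparison set 3 MPI 11Q/11Q knockin mice against 3 wild type littermates, which measures the knockin with a short repeat. Again none of the 34 was called by limma, nor was any gene of all tested (0%). At an unadjusted p below 0.05, Ifitm3, Irf7 and Ifit1 were higher, 3 of 34 (8.82%) against 1.1% of all genes. Of the 34, 28 had a difference above 0, with a median of 0.23 against -0.04 over all genes. That lean rested on the first knockin mouse: without it the median was 0.04, 19 of the 34 were above 0, and 2 had an unadjusted p below 0.05. Choroid plexus markers moved with this comparison: all 12 were below 0, with a median of -2.19, and 10 had an unadjusted p below 0.05, though none was called. Their part in the result was not tested.

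Ifitm3, which keeps viruses from fusing out of endosomes and is also made by brain endothelium, read 5.78, 5.53 and 5.96 in wild type and 6.50, 6.13 and 6.11 in knockin animals of the 11Q line, and 6.01, 5.85 and 5.98 in wild type and 5.76, 5.73 and 5.64 in knockin animals of the 118Q line. Each 11Q knockin mouse exceeded every other mouse of the study, the first by most. The difference was 0.49 ± 0.13 (1.40-fold, adjusted p = 0.939) and 0.36 without that first mouse. Endothelial markers were at a median of 0.05 in the same comparison.

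Irf7, the factor that amplifies type I interferon production, read 1.34, 1.59 and 1.38 in wild type and 2.01, 1.44 and 1.98 in knockin animals of the 11Q line, and 1.64, 1.59 and 1.63 in wild type and 1.60, 1.89 and 1.88 in knockin animals of the 118Q line. Its knockin mice of replicates 1 and 3 were high while the second lay among the wild types. Irf7 differed by 0.37 ± 0.15 and Ifit1 by 0.98 ± 0.45, both with an adjusted p of 0.939. Ifit1 went from 0.98 to 0.32 when the first knockin mouse was left out, Usp18 from 0.82 to 0.11, and Ifit3 from 0.72 to -0.10. Parp14, a mono-ADP-ribosyltransferase, read 1.59, 1.39 and 1.35 in wild type and 1.94, 1.60 and 2.07 in knockin animals of the 11Q line, and 1.57, 1.08 and 2.09 in wild type and 1.49, 1.47 and 1.38 in knockin animals of the 118Q line. It passed the filter only through these knockin arrays, since the mean of the other 9 was 1.49 against a filter level of 1.58, so its difference of 0.43 ± 0.20 is a description only. Among the other 33 genes, Ifitm3, Ifit1 and Ifi47 had all 3 knockin above all 3 wild type mice (9.09%), against 3.24% of all genes, and all 3 peaked in the first 11Q knockin mouse. Without Parp14, 27 of 33 differences lay above 0, with a median of 0.22.

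The difference between the effects, 118Q minus 11Q, asks whether the response depended on the repeat. It was below 0 for 27 of the 34, with a median of -0.28 against 0.08 over all genes, and with the first 11Q knockin mouse left out it was -0.05. Among the 27 are Parp14 (-0.57) and Gbp2 (-0.35), which passed the filter only through the 11Q knockin and the 118Q-line wild type arrays respectively. Their values are descriptions only. No gene was called (0% of all genes), and 4 of the 34 were lower at an unadjusted p below 0.05 (11.8%), against 2.9% of all genes. Ifitm3 differed by -0.72 ± 0.19 (adjusted p = 0.346), Dtx3l by -0.71 ± 0.27, Ifi47 by -0.80 ± 0.32 and Rsad2 by -0.54 ± 0.25. Without that mouse these were -0.60, -0.67, -0.53 and -0.41. With the 18S signal in the fit Dtx3l stood at -0.09. Without the 18S signal, the other probe set of Dtx3l gave -0.20. The weaker probe sets of Rsad2, below the filter, gave 0.06 and -0.37. Ifi47 read 1.82, 1.73 and 1.90 in wild type and 2.76, 1.93 and 1.99 in knockin animals of the 11Q line, and 2.48, 1.72 and 2.26 in wild type and 1.47, 1.90 and 1.90 in knockin animals of the 118Q line. In the 118Q line the spread among its wild type mice was wider than the difference between the group means. Of the cell markers, 16 of 18 endothelial were below 0 (median -0.36) and 18 of 19 microglial above 0 (median 0.53), as were all 12 of choroid plexus (median 1.86), and their part was not tested.

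Set directly against each other, the 2 knockin lines differed in 2 of the 34 genes (5.88%), where 13.7% of all genes were called. Gbp7 was lower in the 118Q than in the 11Q knockin, 1.56-fold, with a log2 difference of -0.64 ± 0.15 (SE, adjusted p = 0.0206), with no overlap. The second Gbp7 probe set gave -0.35. Ifitm3 was 1.45-fold lower, with a difference of -0.53 ± 0.13 (adjusted p = 0.0236), at 5.71 ± 0.06 (SD, n = 3) against 6.24 ± 0.22. Each call ended when any of 3 arrays was left out. Without the first 11Q knockin mouse the adjusted p was 0.0652 for Gbp7 and 0.0845 for Ifitm3. Without the second 118Q knockin mouse it was 0.0801 and 0.0649, and without the third 0.0617 and 0.0926. With the 18S signal in the fit, which was 8.80 ± 0.37 in the 118Q and 10.2 ± 0.13 in the 11Q knockin, the differences were -0.53 and -0.53 and the adjusted p 0.573 and 0.512. In the same comparison 7 of 18 endothelial markers were called lower (median -0.42) and 10 of 19 microglia markers higher (median 0.67). Of 5 neutrophil and erythroid markers, 2 were called higher and 1 lower. The part of these markers was not tested.

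Dtx3l followed at -0.55 ± 0.19 (adjusted p = 0.0708), and its other, weaker probe set gave -0.11. The adjusted p of the brighter probe set was 0.0415 without the third wild type mouse of the 118Q line. It was 0.0243 without the first 118Q knockin mouse, but 0.169 without the first 11Q knockin mouse. Without the second 118Q knockin mouse it was 0.241, with a difference of -0.39, and without the third 0.177. With the 18S signal in the fit the difference turned to 0.40, above 0 (adjusted p = 0.664). Ifitm2, a close relative of Ifitm3, read 3.94, 3.95 and 3.90 in wild type and 3.64, 4.05 and 4.13 in knockin animals of the 11Q line, and 4.64, 4.19 and 4.13 in wild type and 4.40, 4.33 and 4.25 in knockin animals of the 118Q line. It ran opposite to Ifitm3, higher in the 118Q than in the 11Q knockin by 0.38 ± 0.15 (adjusted p = 0.107), and was lowest in the very mouse where Ifitm3 was highest. Groups did not overlap for 8 of the 34 (23.5%), 2 above (Ifitm2 and Mx2) and 6 below, against 38.1% of all genes. Parp14 is among the 6 below, as a description only, since it passed the filter only through the 11Q knockin arrays. Of the 34, 6 (17.6%) had an unadjusted p below 0.05 against 30.9% of all genes.

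The wild type mice of the 2 lines, 118Q minus 11Q line, served as the background. No gene was called (0%), and 1 of the 34 (2.94%) had an unadjusted p below 0.05, against 2.98% of all genes. That gene was Ifitm2, 0.39 ± 0.15 (adjusted p = 1.00), also the only one without overlap (2.94% against 6.44%). The Ifitm2 difference was thus as large between the wild types as between the knockins. Still, 30 of the 34 lay above 0 with a median of 0.17 against 0.01 over all genes, and without the third wild type mouse of the 118Q line 23 lay above 0 with a median of 0.05. The 30 include Gbp2, which passed the filter only through the wild types of the 118Q line, so its difference is a description only.

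Gbp2, a guanylate-binding protein that attacks pathogen vacuoles and passed the filter only through the 118Q-line wild types, read 1.56, 1.28 and 1.54 in wild type and 1.71, 1.45 and 1.88 in knockin animals of the 11Q line, and 1.81, 1.50 and 1.86 in wild type and 1.43, 1.65 and 1.72 in knockin animals of the 118Q line. Oas2, which makes the oligoadenylate that activates RNase L, read 1.76, 1.97 and 1.76 in wild type and 1.69, 2.07 and 2.00 in knockin animals of the 11Q line, and 2.29, 2.11 and 1.89 in wild type and 1.86, 2.19 and 1.67 in knockin animals of the 118Q line. Cmpk2, a mitochondrial nucleotide kinase encoded beside Rsad2, read 4.40, 3.98 and 4.76 in wild type and 4.54, 3.70 and 3.99 in knockin animals of the 11Q line, and 3.48, 3.77 and 4.59 in wild type and 3.93, 3.64 and 3.61 in knockin animals of the 118Q line. None of these separated the wild types. Their differences were 0.27 ± 0.14, 0.27 ± 0.15 and -0.44 ± 0.28, that of Gbp2 being a description only. The weaker Cmpk2 probe set, below the filter, gave 0.005. On average the wild types of the 11Q line were high for Cmpk2 and low for Gbp2 and Oas2.

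**Figure D5:**
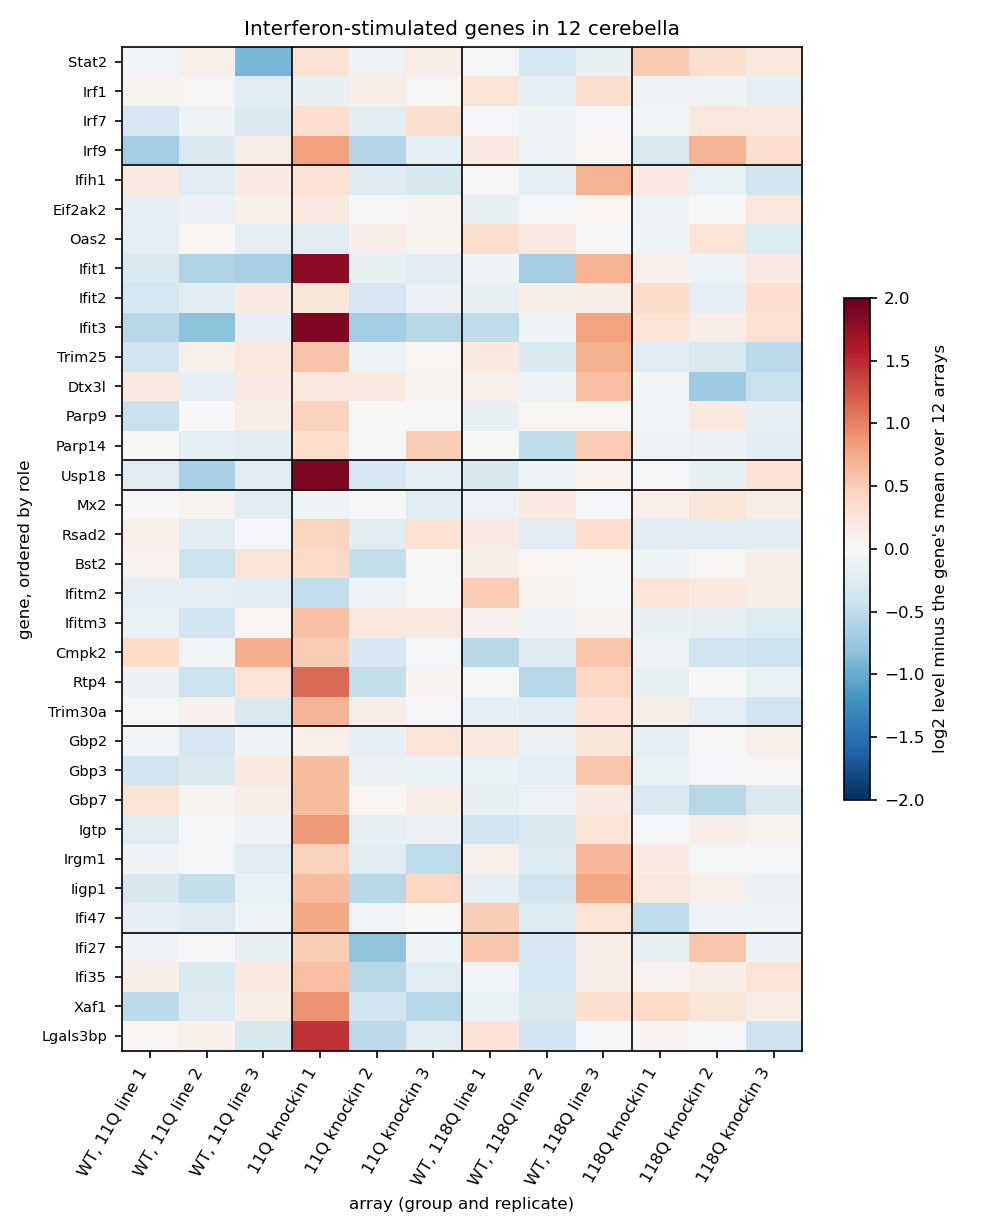
Each row is a gene, ordered by role, and each column an array. Colour gives the log2 level minus the gene's mean over the 12 arrays. In the 11Q knockin replicate 1, 30 of 34 tested genes lie above their mean, and in the wild type replicate 3 of the 118Q line 29. Among the 10 RNA sensing and translation genes the latter is the higher, with a median of 0.56 against 0.32, and for the 4 transcription factors the former's 0.32 is close to the 0.27 of the 118Q knockin replicate 2.

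The remaining genes are given by role. Among the transcription factors, Irf9 ranged from 2.81 to 4.33 over the 12 arrays and differed by 0.20 ± 0.33 in the 118Q and 0.30 ± 0.33 in the 11Q line. Sp100, a nuclear body protein, stayed between 0.72 and 1.42. As a group the 4 tested factors had medians of 0.19 and 0.34 in the 2 lines.

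Among the 10 tested RNA sensing and translation genes, the medians were -0.06 and 0.17. The 10 include Parp14, which passed the filter only through the 11Q knockin arrays, so its part in the 0.17 is a description only. Ifih1, the sensor MDA5 for long double-stranded RNA, ranged from 1.74 to 2.82, with its top in the third wild type of the 118Q line. Eif2ak2, the kinase PKR that halts translation, varied least of the 34, from 2.30 to 2.69. Ifit2 ranged from 1.95 to 2.67, less than its neighbours Ifit1 and Ifit3, and differed by 0.07 ± 0.19 in the 11Q line. Parp9, the partner of Dtx3l, ranged from 1.64 to 2.55 and differed by 0.01 ± 0.17 in the 118Q line.

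The 8 tested membrane and capsid effectors had medians of -0.08 and 0.12. Mx1 and Mx2, dynamin-like GTPases, ranged from 0.63 to 1.10 and from 1.50 to 1.98. The first stayed below the filter, and Mx2 stood at 0.27 ± 0.11 between the knockins (adjusted p = 0.127). Bst2, which tethers budding virus to the cell surface, ranged from 2.33 to 3.19. Rtp4 ranged from 2.12 to 3.82 and Trim30a, a damper of Toll-like receptor signalling, from 1.42 to 2.46, both with their top in the first 11Q knockin mouse.

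The 7 interferon-gamma-induced GTPases had medians of -0.13 and 0.29, and all 7 lay above 0 in the 11Q line, a line whose first knockin mouse was highest for 4 of them. The -0.13 is the value of Gbp2, which passed the filter only through the 118Q-line wild types, and is a description only. Gbp3 ranged from 2.72 to 3.74, Igtp from 2.70 to 3.95, Irgm1, which shields the cell's own membranes, from 3.28 to 4.45 and Iigp1, which breaks parasite vacuoles, from 1.26 to 2.59. Irgm1 and Iigp1 peaked in the third wild type of the 118Q line. In the last group, Ifi27, a mitochondrial membrane protein, ranged from 4.91 to 6.28, Ifi35 from 2.81 to 3.96 and Xaf1 from 2.58 to 4.04, and their 118Q differences were -0.02 ± 0.30, 0.25 ± 0.24 and 0.29 ± 0.31. Other Ifi35 probe sets above the filter gave -0.03 and 0.05, and the weaker Xaf1 probe set below it -0.08.

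The genes upstream were followed from lists. Of 10 interferon genes with a probe set, 1 (Ifnz) lay above the filter. The log2 of their mean linear signal was between 1.15 and 1.51 in all arrays. Of the 13 tested receptor and signalling genes, Ifnar1, Ifnar2, Ifngr1, Ifngr2, Jak1, Jak2 and Tyk2 among them, none was called or had an unadjusted p below 0.05 in limma in either line, and the medians were 0.14 and -0.01. Of the 15 tested genes of the induction pathway, which detects viral nucleic acid and includes Tlr3, Mavs, Tbk1 and Irf3, none was called or passed an unadjusted p of 0.05 in either line either (medians 0.02 and -0.04). Of 34 tested interferon-induced genes outside the 39, none was called in either line. In the 118Q line 4 were higher and 1 lower at an unadjusted p below 0.05 (14.7% against 18.7% of all genes), with a median of 0.02. In the 11Q line 2 were higher (5.88%), against 1.1% of all genes that were higher. Ifi30, a lysosomal thiol reductase that is also a myeloid gene, differed by 0.45 ± 0.14 (adjusted p = 0.128) in the 118Q line, Oas1b by -0.39 ± 0.13 and Herc6, a ligase that attaches Isg15, by 0.32 ± 0.12. Ifi30 was similarly higher in the 11Q knockin, by 0.40 ± 0.14, and between the wild types, by 0.42 ± 0.14. Its difference of effects was 0.05 ± 0.20.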

How the data were processed

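Total RNA of 12 cerebella was hybridised to 1-colour arrays of 45101 probe sets. The values are log2 signals that the authors deposited, made with RMA per the submitters' processing notes. Whether all 12 arrays were normalized together, and with which version and settings, is not given in the sources used here. Array medians over all probe sets ran from 2.21 to 2.38, and every difference between the lines carries this limit. A single gene symbol was held by 34958 probe sets, several symbols by 932 and none by 9211, and probe sets with several or none were named as no gene. Probe sets whose mean over the 12 arrays was among the lowest 40% (at or below 1.58) were removed, which left 27060 probe sets, and the highest of each gene's gave 12672 genes. One limma model (limma 3.58.1, R 4.3.3) with the 4 groups gave 5 comparisons, each with Benjamini-Hochberg adjusted p-values over all genes tested, called below 0.05. It had 8 residual degrees of freedom, and the number of arrays limits its precision: the median standard error was 0.224 in the interferon-stimulated genes and 0.139 in all genes. The fit was tested on simulated data first.

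The genes and lists were chosen with earlier results of these data known. Values of every array are given for genes called in any comparison, for those with the smallest p in each (8 in the 118Q line, 5 in the 11Q line and in the difference, 4 in the other comparisons) and for the 5 with the widest range. From other lists, up to 3 genes by p in the 118Q line are named. Replicate numbers were not used as pairs. Same-numbered arrays of 2 groups correlated from -0.26 to 0.45 in their deviations from the group means. In the 118Q line each stayed below the highest correlation between different numbers. In the 11Q line the first wild type correlated at 0.19 with the first knockin mouse and at most -0.06 with the other knockins. The first wild types of the 2 lines correlated at 0.26, against at most 0.09 with the other 118Q-line wild types. The third wild types of the 2 lines correlated at 0.45. With the other 118Q-line wild types, the third of the 11Q line reached at most -0.06. What these 2 mice share was not tested, and leaving out both was among the alternatives. Promoters came from RefSeq, build GRCm38.p6, for 30 of the 39 genes. Alternatives were other filters, probe set rules, scalings, weights, covariates and leaving out arrays.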

Additional observations from a re-analysis of the deposited data

Results flagged for a closer look

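Ifitm3 had opposite sides in the lines: all 3 knockin mice of the 11Q line lay above, and all 3 of the 118Q line below, their wild type littermates. The difference of the effects, 118Q minus 11Q, was -0.72 ± 0.19 (SE) on the log2 scale, with an adjusted p of 0.346 in limma. The same opposition was seen in 1 of the 34 genes (2.94%) and in 1.03% of all genes tested. Endothelial markers had medians of 0.05 in the 11Q and -0.37 in the 118Q line, and their part in the difference was not tested.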

How the results depend on the processing

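Only 3 arrays a group, low signals (12 of the 34 genes remained when the lowest 60% of probe sets were removed) and 1 mouse that sets most of the 11Q result limit what the data can show. No direction of a called value reversed. Of the 34 genes, the number called in the 118Q line was 0, and 1 with array weights; leaving out 1 array gave 0 to 1. Between the knockins it was 2, and 1 with the lowest 60% removed, 6 with array weights, 0 with the 18S signal as a covariate, 3 with the replicate block, and 0 to 3 when 1 array was left out. In the 11Q line, in the difference of effects and between wild types it stayed 0 in every fit made. The median difference of effects was -0.28, and 0.12 without the 11Q knockin mouse 1 and the 118Q-line wild type mouse 3, a fit chosen after seeing the data; leaving out 1 array gave -0.41 to -0.05, the latter (-0.050) without 11Q knockin mouse 1. The median between the knockins was -0.09, 0.13 in that same fit, and -0.27 to 0.13 when 1 array was left out. The other medians ranged from -0.23 to 0.10 (118Q), 0.04 to 0.36 (11Q) and 0.05 to 0.30 (wild types). Of 2096 alternative values for 19 genes, 1974 kept direction and side of the threshold, 10 lost a call, 8 gained one and 104 changed sign without a call. Gained calls included Dtx3l between the knockins under the replicate block (adjusted p = 0.0498). The cause of these shifts was not tested. A fit on the groups compared alone could not be made for the difference of effects, which uses all groups.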

Other observations

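Other genes also had their highest value in the first knockin mouse of the 11Q line. Those with the widest gap to the next array, apart from the interferon-induced genes named in the report, were Gpx3, a secreted glutathione peroxidase, at 5.81 against at most 4.45 in the other 11 arrays, Igfbp4, a binding protein of insulin-like growth factors, at 6.50 against 5.36, Rnf213, a large ubiquitin ligase, at 5.00 against 4.05, and Zbtb16, a transcription factor, at 5.45 against 4.58. They were chosen after their values were seen. They are set apart only because they stood on none of the interferon lists used here, and whether interferon induces any of them was not examined.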
